A study of Mus musculus with 14 samples.

Results

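Levels of 10 transcription factor genes of germinal centre and B lineage cells were followed in germinal centre B cells that had lost 0, 1 or 2 alleles of Crebbp. The genes were Bcl6, Bach2, Pax5, Ebf1, Mef2b, Mef2c, Spib, Pou2af1, Irf8 and Foxo1. All probe sets annotated to one of these genes alone were taken, 26 of the 45101 on this Affymetrix mouse genome array, and 25 of them were bright enough to be tested. Each of the 10 genes had at least 1 tested probe set. The values are log2 intensities, so a difference of 1 is a 2-fold change.

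The cells were B220+CD95+PNA+ spleen cells, sorted from 14 mice, 1 array per mouse, on day 12 after immunisation with sheep red blood cells. The mice were on a C57BL/6x129Sv background, 2 to 3 months old, and all carried the Cg1-Cre transgene, whose recombinase becomes active in B cells after they are stimulated. The genotypes were Crebbp+/+ Cg1-Cre (WT, n = 4, 1 male), Crebbpfl/+ Cg1-Cre (HET, n = 5, 2 males) and Crebbpfl/fl Cg1-Cre (KO, n = 5, 3 males). Because the Cre acts in the B cell itself and only after stimulation, a sorted population can hold cells that kept a floxed allele, and their share was not measured here.

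CREBBP is a coactivator that acetylates histones and other proteins, and BCL6, the repressor that germinal centre B cells cannot form without, is among the proteins it acetylates. BACH2 and BCL6 hold back plasma cell differentiation, whereas PAX5 and EBF1 establish and keep B cell identity. MEF2B and MEF2C are MADS box factors of which MEF2B activates Bcl6, OCA-B (the product of Pou2af1) is a B cell coactivator of octamer-binding factors, SPIB is an ETS factor related to PU.1, IRF8 is an interferon regulatory factor of germinal centre cells and FOXO1 sustains their dark zone state. The comparisons ask whether RNA of these regulators differs when 1 or both Crebbp alleles are lost.

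Short stretches of promoter sequence are shown for 5 genes, 1 each, whose upstream region holds a recognition motif of the same circuit, so that the factors and the sequences they read can be seen together. They are from RefSeq, build GRCm38.p6, each read 5′ to 3′ on the strand of its gene, with the motif in capitals. All of them end upstream of the start site. The genes are Mef2b at chr8:70152652-70152707 (plus strand, octamer, first base 85 bases before the start), Spib at chr7:44532104-44532159 (minus strand, EBF motif, 64 bases before), Foxo1 at chr3:52268222-52268277 (plus strand, EBF motif, 91 bases before), Ebf1 at chr11:44617922-44617978 (plus strand, IRF motif on the opposite strand, 154 bases before) and Bcl6 at chr16:23989014-23989067 (minus strand, PU box, 191 bases before).
Mef2b: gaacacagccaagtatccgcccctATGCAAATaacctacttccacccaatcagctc
Spib: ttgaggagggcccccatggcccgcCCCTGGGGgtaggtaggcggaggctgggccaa
Foxo1: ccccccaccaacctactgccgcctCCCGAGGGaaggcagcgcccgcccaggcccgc
Ebf1: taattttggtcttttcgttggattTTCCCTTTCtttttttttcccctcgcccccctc
Bcl6: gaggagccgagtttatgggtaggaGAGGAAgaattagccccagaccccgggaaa

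The windows searched ran from 250 bases before to 50 bases after each start, on both strands, and the 10 genes had 15 of the 32851 windows. The octamer ATGCAAAT was in 1 of the 15, that of Mef2b, and in 1.74% of all windows. The EBF motif CCCNNGGG was in 3 (Foxo1, Irf8 and Spib) against 13.7% of all windows, the IRF motif GAAANNGAA in 1 against 8.56%, and GAGGAA, the core of ETS sites and PU boxes, in 5 (Bcl6, Ebf1, Mef2c and Pou2af1) against 28.3%. In Spib, 2 EBF matches overlap, starting 65 and 64 bases before the start. Upstream GAGGAA matches that are not shown begin 122 and 186 bases before 2 starts of Mef2c and 130 bases before a start of Ebf1. The BCL6 motifs TTCCTAGAA and TTCTAGAA (1.5% of windows), the BACH motif TGACTCAGC (0.454%), the MEF2 motifs CTAAAAATA and CTATTTATA (0.947%) and the FOXO motif GTAAACA (3.65%) had no match in the 15 windows. A match is a description of the letters and shows no binding.

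None of the 10 genes passed the test in KO against WT cells. In limma, 0 of the 25 member probe sets had an adjusted p under 0.05, where 0.893% of all 22518 tested probe sets did. Without adjustment, 0 of the 25 had p under 0.05, against 9.85% of all tested. The differences of the 25 lay between -0.22 and 0.19, with a median of -0.05 and a median size of 0.06, beside a median size of 0.09 over all tested probe sets. No member probe set differed by more than 0.25, as 13.1% of all tested probe sets did. In these bulk samples, fewer cells of a type and less RNA per cell cannot be told apart.

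**Figure D1:**
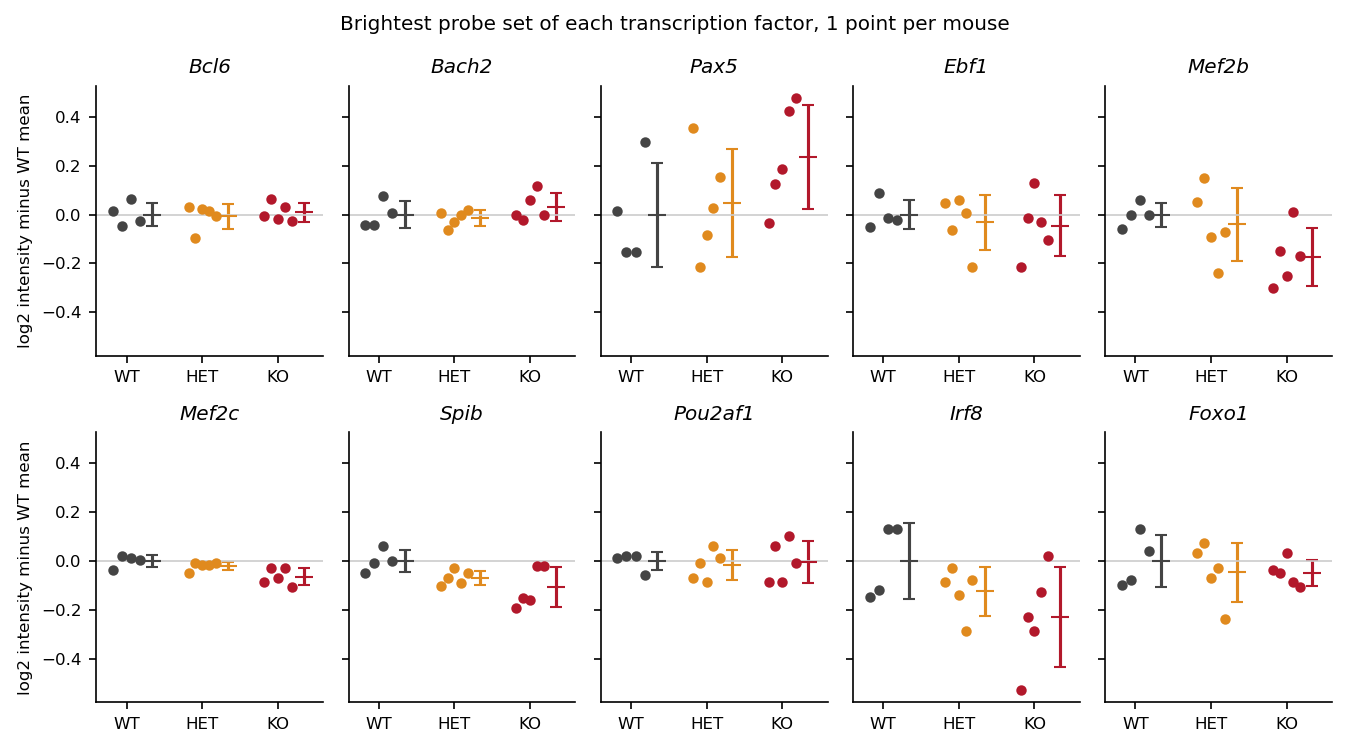
Log2 intensity of the brightest probe set of each gene minus its WT mean (y axis), 1 point per mouse for WT (n = 4), HET (n = 5) and KO (n = 5), with mean and SD beside the points. The groups overlap for every gene, and Bcl6 spans 0.16 over the 14 mice where Pax5 spans 0.69.

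Among the repressors of plasma cell fate, Bcl6 had values of 13.03, 12.97, 13.08 and 12.99 in the 4 WT mice on its brightest probe set. They were 13.05, 12.92, 13.04, 13.03 and 13.01 in HET and 13.01, 13.08, 13.00, 13.05 and 12.99 in KO. The 3 groups lay within one another and no mouse of the 14 was more than 0.16 from any other. The KO difference was 0.00 (SE 0.06), with a 95% interval from -0.12 to 0.13, that is from 91.8% to 109.2% of the WT intensity. On the other Bcl6 probe set the means were 10.87 ± 0.10 (SD, n = 4) in WT, 10.83 ± 0.19 (SD, n = 5) in HET and 10.79 ± 0.09 (SD, n = 5) in KO, a KO difference of -0.10 (SE 0.10, limma adjusted p = 0.858). Bcl6 lies on the chromosome that carries Crebbp.

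Bach2 was as even on its brightest probe set. WT values ran from 12.65 to 12.77, HET values from 12.63 to 12.71 and KO values from 12.67 to 12.81. The KO difference was 0.04 (SE 0.06), with an interval from -0.09 to 0.16. The other Bach2 probe sets gave 0.05 (SE 0.15) and 0.04 (SE 0.10), with wider KO ranges of 12.29 to 13.04 and 12.31 to 12.87, in which KO 3 was the lowest and KO 4 the highest mouse.

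Pax5, the guardian of B cell identity, was measured on dim probe sets. On the brighter one the WT values were 7.52, 7.35, 7.35 and 7.80. The HET values were 7.86, 7.29, 7.42, 7.53 and 7.66, and the KO values 7.47, 7.63, 7.69, 7.93 and 7.98. KO 4 and KO 5 lay above every WT and HET mouse, and KO 1, KO 2 and KO 3 lay within the WT range. The KO difference of 0.19 (SE 0.14, adjusted p = 0.770) had an interval from -0.11 to 0.49, or 92.4% to 140.4% of WT. On the other probe set it was -0.02 (SE 0.10), so the Pax5 probe sets differ in sign.

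Ebf1, which acts upstream of and together with PAX5, had 4 tested probe sets with KO differences of -0.04 (SE 0.08), -0.14 (SE 0.09), -0.18 (SE 0.12) and -0.07 (SE 0.14). On the brightest, WT values ran from 12.09 to 12.23, HET from 11.93 to 12.20 and KO from 11.93 to 12.27, so the KO range contained the WT range. The fifth Ebf1 probe set, below the expression filter with a mean of 6.09, had means of 6.10 ± 0.11 (SD, n = 4) in WT, 6.14 ± 0.27 (SD, n = 5) in HET and 6.03 ± 0.29 (SD, n = 5) in KO and was not tested.

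Of the MADS box factors, Mef2b had WT values of 11.25, 11.31, 11.37 and 11.31. Its HET values were 11.36, 11.46, 11.22, 11.07 and 11.24, and its KO values 11.01, 11.16, 11.06, 11.32 and 11.14. Of the KO mice, 4 lay below every WT mouse, and KO 4 lay inside the WT range. The KO difference was -0.15 (SE 0.09, adjusted p = 0.669), with an interval from -0.34 to 0.04. A further probe set, annotated to Mef2b and to its neighbour Borcs8 and so no member, differed by -0.01 (SE 0.07).

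Mef2c had 5 probe sets. The brightest was the steadiest of all member probe sets, with WT values from 12.66 to 12.72, HET values from 12.65 to 12.69 and KO values from 12.59 to 12.67. Its KO difference was -0.06 (SE 0.05, interval -0.17 to 0.06). The others gave 0.00, -0.05, -0.21 and -0.13, with SE from 0.08 to 0.18. The last of these had the widest range of any member probe set, 0.90 over the 14 mice, with WT 1 and WT 2 at 10.97 and 11.03 and WT 3 and WT 4 at 10.54 and 10.28.

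Spib, the ETS factor, had WT values of 13.27, 13.31, 13.38 and 13.32. The HET values were 13.22, 13.25, 13.29, 13.23 and 13.27 and the KO values 13.13, 13.17, 13.16, 13.30 and 13.30. KO 1, KO 2 and KO 3 lay below every WT and HET mouse, while KO 4 and KO 5 lay inside the WT range and above all HET mice. The KO difference was -0.10 (SE 0.06, adjusted p = 0.707), with an interval from -0.23 to 0.04, or 85.3% to 102.6% of WT. Pou2af1, whose product OCA-B works at octamers such as the one printed for Mef2b, had a KO difference of 0.00 (SE 0.07, interval -0.14 to 0.14). Its values ran from 13.16 to 13.24 in WT, from 13.13 to 13.28 in HET and from 13.13 to 13.32 in KO.

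The smallest p-value among the 25 belonged to Irf8. Its WT values were 12.49, 12.52, 12.77 and 12.77. HET mice had 12.55, 12.61, 12.50, 12.35 and 12.56, and KO mice 12.11, 12.41, 12.35, 12.51 and 12.66. KO 1, KO 2 and KO 3 lay below all WT mice, and the others overlapped with them. The difference was -0.22 (SE 0.11, adjusted p = 0.561) with an interval from -0.47 to 0.02, which is 72.2% to 101.4% of WT. On its other probe set it was -0.18 (SE 0.11, adjusted p = 0.692), with KO 1 again the lowest mouse at 10.64.

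Foxo1 had 4 tested probe sets, with KO differences of -0.06 (SE 0.08), 0.00 (SE 0.06), 0.06 (SE 0.08) and 0.03 (SE 0.09). On the brightest, WT values ran from 12.03 to 12.26, HET values from 11.89 to 12.20 and KO values from 12.02 to 12.16. All KO mice but KO 5, at 12.02, lay within the WT range.

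A missed threshold does not show equal levels, so the width of the intervals matters. For 23 of the 25 probe sets the 95% interval of the KO difference lay within 0.5 of 0, as it did for 74.8% of all tested probe sets. The exceptions were the Mef2c probe sets with differences of -0.21 and -0.13, whose intervals reached -0.50 and -0.52. All 25 lay within 1 of 0, against 97.7% of all tested. Over the 25, the lowest bound was 69.9% of the WT intensity and the highest 140.4%. KO and WT arrays did not overlap for 0 of the 25, against 5.02% of all tested probe sets. Differences were below 0 for 18 of the 25 (72%), beside 50.5% of all tested. The 25 share genes and mice and are not independent. The shares over all tested probe sets, here and above, are not matched for brightness, and bright probe sets vary less in general.

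**Figure D2:**
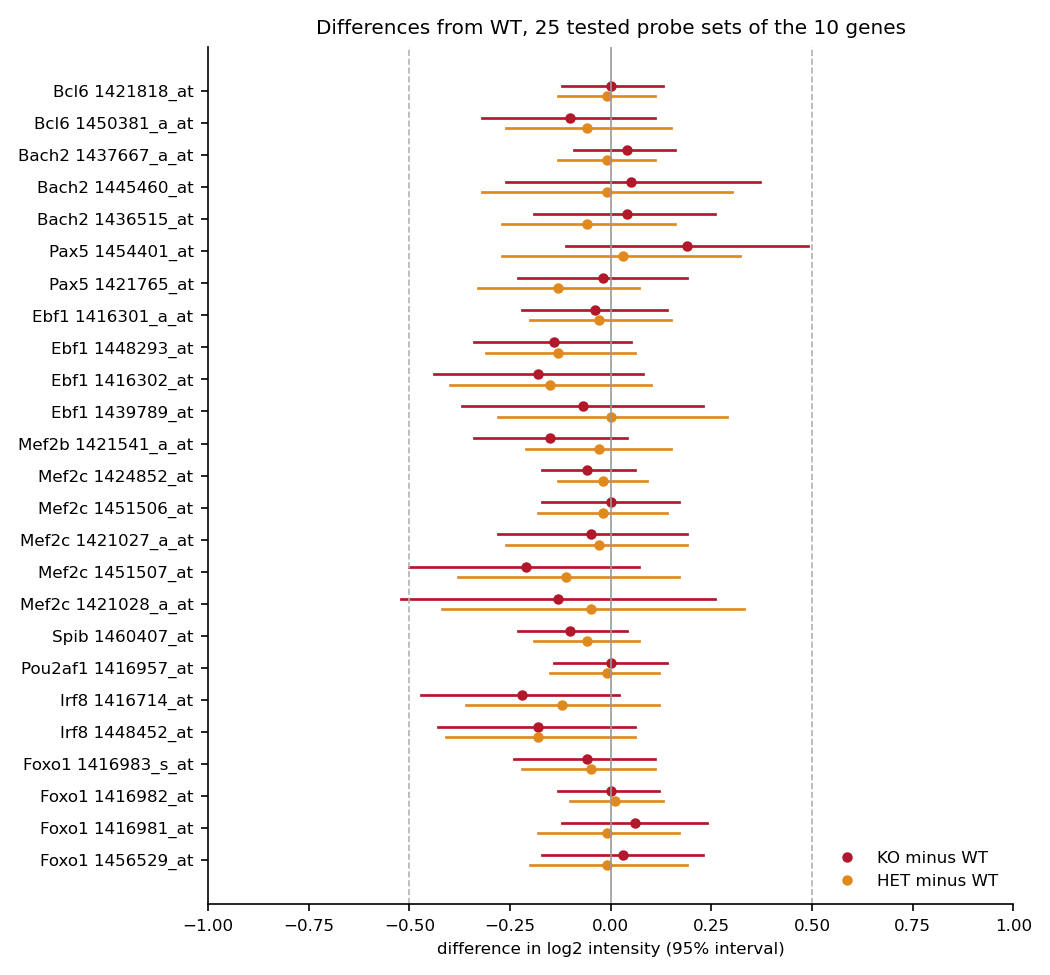
Differences from WT in log2 intensity with 95% intervals (x axis) for the 25 tested probe sets, red for KO and orange for HET, with dashed lines at 0.5 either side of 0. Every interval contains 0, and 2 of the KO intervals, both of Mef2c, reach past a dashed line.

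With 1 floxed allele, none of the genes passed either. In HET against WT, limma called 0 of the 25 member probe sets and 0% of all tested, and 0 of the 25 against 2.00% of all had an unadjusted p under 0.05. HET differences ran from -0.18 (SE 0.11, Irf8) to 0.03 (SE 0.13, Pax5), with a median of -0.03. All 25 intervals lay within 0.5 of 0, against 83.5% of all tested. The HET and WT arrays did not overlap for 0 of the 25 (1.14% of all tested). KO and HET are both set against the same 4 WT mice, so their differences from WT are not independent.

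Between KO and HET, limma called 0 of the 25 and 0% of all tested probe sets, with 0 of the 25 and 4.62% of all at an unadjusted p under 0.05. The differences ran from -0.12 (SE 0.08) for Mef2b to 0.16 (SE 0.13) for Pax5. All 25 intervals lay within 0.5 of 0 (84.6% of all tested), and arrays did not overlap for 0 of the 25 (0.990% of all tested). The F test for any difference among WT, HET and KO called 0 of the 25, against 0.417% of all, and 0 of the 25 had an unadjusted p under 0.05, against 6.42% of all. On the brightest probe sets, the WT, HET and KO means of Irf8 were 12.64, 12.51 and 12.41. Those of Spib were 13.32, 13.25 and 13.21 and those of Mef2b 11.31, 11.27 and 11.14. Ebf1 (12.15, 12.11 and 12.09) and Mef2c (12.70, 12.68 and 12.63) also fell in order, and Pax5 rose (7.50, 7.55 and 7.74). Bcl6, Bach2 and Pou2af1 had no such order, and Foxo1 was at 12.08 in both HET and KO. No neighbouring pair passed a test. Means on the other Irf8 probe set also fell in order (11.12, 10.95 and 10.94), whereas the other Pax5 probe set had no order (6.98, 6.86 and 6.99). These are plain means, not adjusted for sex. How many of all tested probe sets have such an order was not counted. The sex of the mice, a term of the fit, had 0 of the 25 called and 0.0488% of all tested.

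The members also varied little between mice of one genotype. The within-group SD is here that of the fit, after its group and sex terms, and not the SD of a single group. It was below the median of all tested probe sets, 0.171, for 19 of the 25. Its median was 0.128, with a range from 0.029 (Mef2c, brightest) to 0.283 (Mef2c, widest). Bright probe sets are steadier in general. Among the 1955 tested probe sets with a mean above 12, a level chosen after the values were seen, the median SD was 0.078, and among the 12 member probe sets above it the median was 0.099. The bright member probe sets thus had no lower spread than bright probe sets in general. Near the top of an array's range intensities respond less to RNA amount, and how far this affects these probe sets was not tested.

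**Figure D3:**
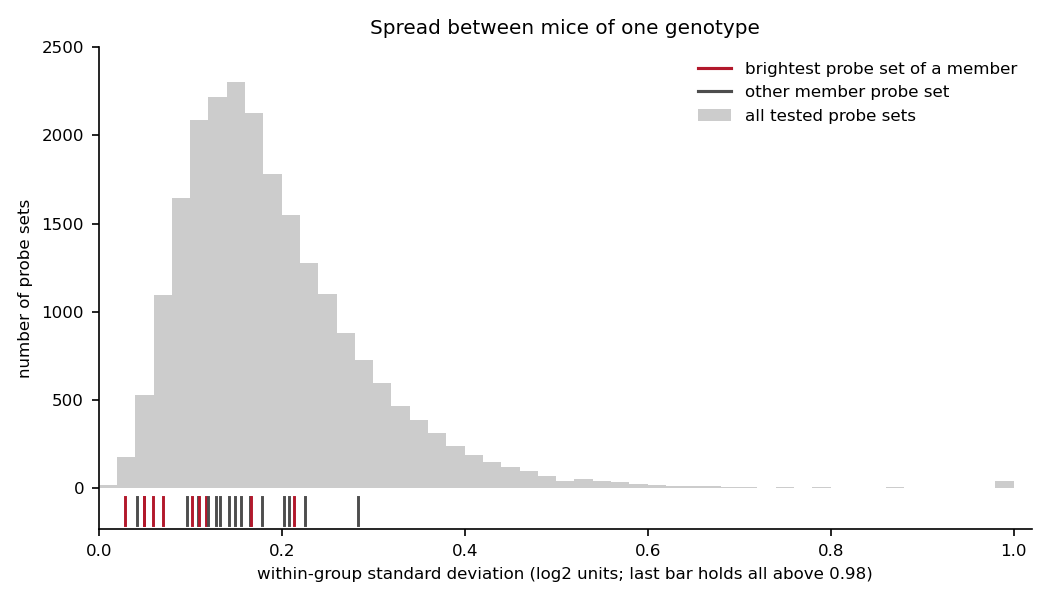
Number of tested probe sets (y axis) by within-group SD of the fit, after its group and sex terms, in log2 units (x axis). Ticks under the axis are the member probe sets, red for the brightest of each gene. Most member ticks lie left of the median of 0.171, between 0.029 and 0.283.

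Probe sets of one gene did not always move together from mouse to mouse. KO 3 was the lowest of the 14 mice on 7 of the 25 probe sets, namely 3 of Ebf1, 2 of Bach2, 1 of Mef2c and that of Pou2af1. On Pou2af1, KO 3, KO 1 and HET 3 were all at 13.13 after rounding. KO 1 was the lowest mouse on 5 of the 25. How often each mouse was lowest over all tested probe sets was not counted. On the Ebf1 probe sets KO 3 had 9.98, 8.95 and 10.60, where the other 13 mice began at 10.21, 9.25 and 10.67. Yet on the brightest Ebf1 probe set KO 3 was the highest mouse, at 12.27. On Mef2c it had 10.99, with the other mice between 11.46 and 11.81. Over tested probe sets, KO 3 correlated with the remaining mice at a median r of 0.975, where each of the others had 0.983 to 0.988. The 3′ minus 5′ log2 signal of its Gapdh control probe sets was 0.74, against 0.59 to 0.72 in the other mice, and that of its beta-actin controls was 0.82, against 0.54 to 0.82. On the transferrin receptor and pyruvate carboxylase controls it was 3.60 and 0.55, inside the 2.96 to 3.85 and 0.00 to 0.59 of the others. Their part in these low values was not tested.

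Without KO 3 the spread of differences changed little in size, from -0.23 to 0.22, and 0 probe sets passed (smallest adjusted p = 0.521). Single probe sets moved with it. The Mef2c difference went from -0.21 to -0.03 (SE 0.08), that of Ebf1 from -0.18 to -0.04 (SE 0.09) and that of Bach2 from 0.05 to 0.22 (SE 0.12). Irf8 kept -0.20 (SE 0.13) and -0.23 (SE 0.12) on its 2 probe sets. Without KO 3, 17 of the 25 differences were below 0, with a median of -0.03.

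**Figure D4:**
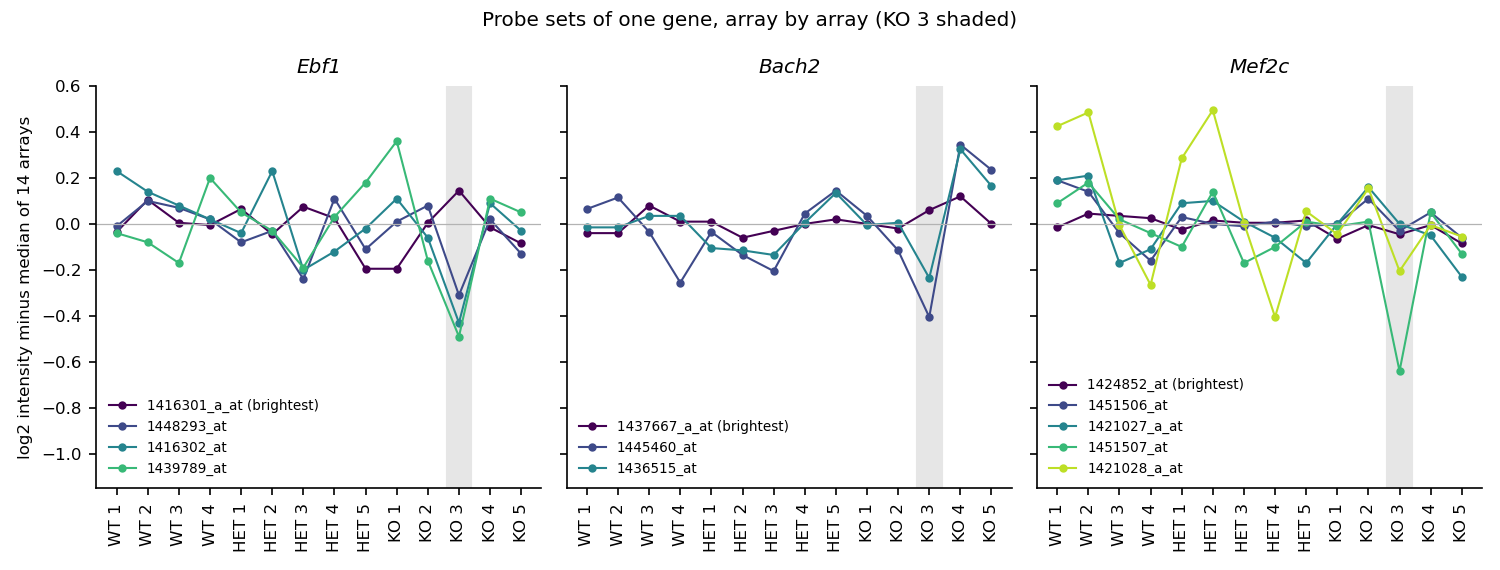
Log2 intensity minus the median of the 14 arrays (y axis) for each array (x axis), 1 line per tested probe set of Ebf1, Bach2 and Mef2c, with KO 3 shaded. In KO 3 the dimmer Ebf1 and Bach2 probe sets and 1 of Mef2c lie low while the brightest of each gene does not.

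The relatives of the 10 factors had no called gene. Each listed gene was taken by its brightest probe set, and over all 10225 genes so tested 0.763% were called higher and 0.616% lower, with a median difference of 0.00. Differences were below 0 for 51% of the 10225. Some genes are in more than 1 list, so the counts of the lists are not independent. Of 15 tested paralogues 0 passed, 10 had differences below 0 and the median was -0.05. Irf4, which drives germinal centre exit and plasma cell fate, had means of 11.75 ± 0.16 (SD, n = 4) in WT, 11.60 ± 0.07 (SD, n = 5) in HET and 11.45 ± 0.10 (SD, n = 5) in KO, a KO difference of -0.30 (SE 0.09, adjusted p = 0.156). Its KO and WT arrays did not overlap, as in 666 of the 10225 genes. In the lists here and below, this also held for Mef2d, Mta3, Cd69, Cxcr5, Cdkn2a, Ly6d, Cd79a, Cd40 and Il4ra. Mef2d differed by -0.27 (SE 0.09, adjusted p = 0.233), Foxo3 by 0.26 (SE 0.11, adjusted p = 0.471) and Irf1 by -0.14 (SE 0.07, adjusted p = 0.626).

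Of 29 other transcription factors of B cells 0 passed, 21 had differences below 0 and the median was -0.10. The smallest p-values belonged to the NF-kB subunit gene Relb at -0.35 (SE 0.14, adjusted p = 0.365), the proto-oncogene Myb at 0.20 (SE 0.08, adjusted p = 0.409) and the inhibitors of E proteins Id3 and Id2 at -0.30 and -0.37 (adjusted p = 0.505 and 0.554). Of 7 cofactors of BCL6, 0 passed, all 7 had differences below 0 and the median was -0.04. Among them were Mta3 at -0.37 (SE 0.11, adjusted p = 0.150), whose KO and WT arrays did not overlap, and the corepressor gene Bcor at -0.26 (SE 0.10, adjusted p = 0.361). Tbl1xr1 and Ctbp1 differed by -0.11 and -0.03.

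The next lists hold genes that were listed here as repressed or activated by the factors. Whether each of them is so in these cells was not tested. Of 16 genes listed as repressed by BCL6 0 passed, 7 had differences below 0 and the median was 0.02. The activation marker Cd69 had -0.52 (SE 0.13, adjusted p = 0.0916), the follicle homing receptor gene Cxcr5 -0.36 (SE 0.11, adjusted p = 0.177) and the cell cycle inhibitor gene Cdkn1b 0.27 (SE 0.08, adjusted p = 0.203). Irf4 is also in this list. Of 5 genes repressed by BACH2, 1 passed. Cdkn2a, which encodes the cell cycle inhibitors of the INK4A and ARF locus, had means of 6.29 ± 0.10 (SD, n = 4) in WT, 6.40 ± 0.11 (SD, n = 5) in HET and 6.70 ± 0.14 (SD, n = 5) in KO, a KO difference of 0.43 (SE 0.09, adjusted p = 0.0467). Its mean of 6.47 lay just above the filter of 6.43, and its call held in 2 of the 14 fits that left out 1 mouse (without HET 3 or KO 5), with an adjusted p of up to 0.136 in the others. With the replicate number as a block it was not called (0.46, adjusted p = 0.061). Prdm1, the driver of plasma cell fate that both repressors silence, had -0.28 (SE 0.16, adjusted p = 0.654), and Hmox1, a haem oxygenase, -0.34 (SE 0.18, adjusted p = 0.605). Gclm differed by 0.17 (SE 0.16).

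Among 16 genes activated by PAX5 or EBF1, 0 passed, 12 had differences below 0 and the median was -0.07. Ly6d, a surface marker of B progenitors, had -0.47 (SE 0.15, adjusted p = 0.232), the antigen receptor chain gene Cd79a -0.18 (SE 0.06, adjusted p = 0.258), and Cd22 and Cd72, inhibitory coreceptors, -0.19 and -0.38 (adjusted p = 0.348 and 0.413). The mean level of 6 B lineage marker genes, which shares Cd79a, Cd79b, Cd22 and Cd72 with this list, ran from 12.95 to 13.08 in WT, from 12.86 to 12.98 in HET and from 12.79 to 12.91 in KO, with 0 of the 6 called. Of 13 genes activated by OCA-B, SPIB, IRF8, MEF2B or MEF2C, 0 passed, 11 had differences below 0 and the median was -0.16. Ciita, the transactivator of MHC class II genes, had -0.34 (SE 0.10, adjusted p = 0.202), Cd40 -0.37 (SE 0.13, adjusted p = 0.291) and Ly86 -0.16 (SE 0.06, adjusted p = 0.327). Cd22 is also in this list. Of 13 genes activated by FOXO1, 0 passed, 7 had differences below 0 and the median was -0.03. Beside Cdkn1b, the adaptor gene Blnk had -0.09 (SE 0.06), Bcl2l11 0.18 (SE 0.15) and Sesn3 -0.08 (SE 0.07).

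**Figure D5:**
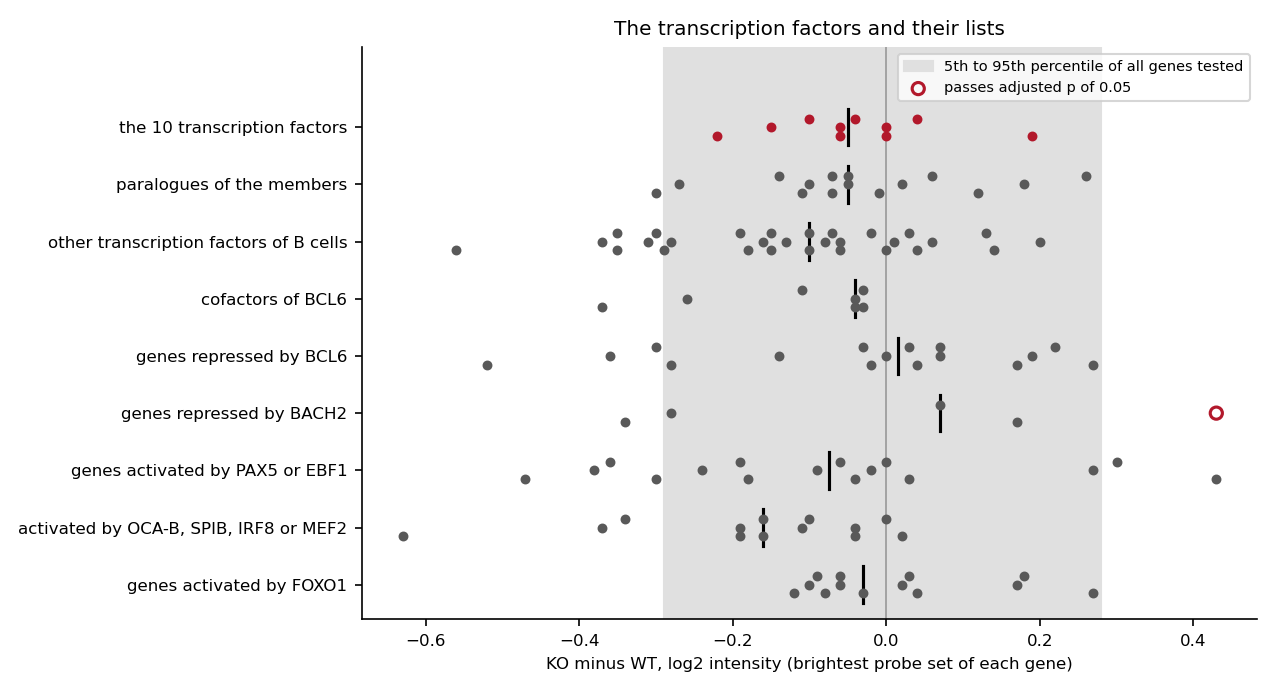
KO minus WT difference in log2 intensity (x axis) for the brightest probe set of each gene, 1 point per gene, in the 10 transcription factors and 8 lists of related genes, with list medians as black bars. Shading spans -0.29 to 0.28, the 5th to 95th percentile of all genes tested, and Cdkn2a at 0.43 is the open circle. A factor that is also in a list is plotted in both.

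The labels were checked on Crebbp, Ep300 and cell type markers. Crebbp was called lower in KO on 2 of its 4 probe sets. The largest difference was on a probe set at 10.29 ± 0.08 (SD, n = 4) in WT, 9.95 ± 0.17 (SD, n = 5) in HET and 9.42 ± 0.10 (SD, n = 5) in KO, a KO change of -0.86 (SE 0.09, adjusted p = 0.000822). The others gave -0.47 (adjusted p = 0.0497), -0.41 on the brightest (adjusted p = 0.0719) and -0.30 (adjusted p = 0.462, with overlapping arrays). HET against WT was called on 0 of the 4, with differences from -0.34 to -0.12 (adjusted p = 1 for each). For Ep300, which encodes a closely related acetyltransferase, the KO difference was -0.01 (SE 0.13). The position of the Crebbp probe sets relative to the deletion is not given in the sources used here. Germinal centre B markers, among them the member Bcl6, were bright in all groups. Above the filter were 7 of 7, with a mean level from 11.94 to 12.33 per mouse. Of these, 1 was called in KO against WT, the signalling regulator gene Rgs13, named after its values were seen, at -0.62 (SE 0.13, adjusted p = 0.0369). With 1 mouse left out in turn, the call remained in 3 of 14 fits (without KO 1, KO 2 or KO 5), and it was lost with the replicate block (-0.56, adjusted p = 0.0958). Plasma cell markers had 5 of 6 above the filter, with a mean from 9.42 to 9.72 in WT and HET and from 9.32 to 9.66 in KO, and naive B cell markers 3 of 4. Among the plasma cell markers, Jchain differed by -0.06 (SE 0.07), Irf4 by -0.30, Prdm1 by -0.28 and Xbp1 by -0.15 (SE 0.14). Only Sdc1, which encodes syndecan-1, was higher in KO, by 0.81 (SE 0.19, adjusted p = 0.0720), with KO and WT arrays apart. T cell markers had 2 of 7 above the filter, with a mean from 5.71 to 6.57, and the markers of erythroid and natural killer cells had 0 of 2 and 0 of 3 by their means over the 14 mice. Some mice were higher in natural killer markers, whose mean level exceeded the filter in WT 2, WT 3 (7.19), HET 2 (6.53) and KO 1 (7.29). WT 1 lay just below it at 6.28. Gzma, a granzyme gene, was at 7.88, 8.41 and 9.45 in WT 1, WT 2 and WT 3 and at 3.95 in WT 4. It ran from 3.82 to 8.40 in HET mice, was 9.40 in KO 1 and ran from 3.70 to 4.20 in the other KO mice. This signal was thus uneven between WT and KO, and its part in the KO differences was not tested. KO 1 was also the lowest mouse on both Irf8 probe sets. On the brightest it had 12.11, whereas WT 2, WT 3 and HET 2 had 12.52, 12.77 and 12.61. Myeloid and dendritic cell markers, of cell types that also express Irf8, Spib or Mef2c, had 3 of 9 and 3 of 6 above it. The mean level of the myeloid markers ran from 5.73 to 6.64 in WT and from 5.85 to 6.40 in KO, with single mice from 6.41 to 10.32 for Lyz2 and from 6.76 to 10.26 for S100a9. That of the dendritic markers ran from 6.35 to 6.51 in WT and from 6.27 to 6.39 in KO. The part of these cell types in the Irf8 and Spib values was not tested. Stroma and endothelium markers had 1 of 5 above the filter, Pecam1, and 0 called. Pecam1 differed by -0.56 in KO (SE 0.13, limma adjusted p = 0.072), with WT mice from 8.13 to 8.37 and KO mice from 7.32 to 7.90.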

How the data were processed

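Every array came as deposited log2 intensities that the authors computed with RMA, per the submitters' processing notes, which name no version. RMA includes quantile normalisation, which hides a change shared by most genes. Genes were named through the platform annotation, and 932 probe sets with several genes were left out of the lists. The 22518 non-control probe sets whose mean over the 14 arrays exceeded 6.43, their median, entered 1 linear model with group and sex as terms (limma 3.58.1, functions lmFit and eBayes, under R 4.3.3). P-values were Benjamini-Hochberg adjusted over all of them, threshold 0.05, and intervals are limma's at 95%. The fit was tested on simulated data. Their noise was independent between mice, so that test does not cover variation that mice share.

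Members and lists were chosen with earlier results of these data known. Each member is given by its brightest probe set and, as values, the others, and each list by its 4 or fewer genes with the smallest p in KO against WT. At most 58 values were identical between any 2 arrays. The labels do not say what a shared replicate number means, so the fit has no replicate block. The number of arrays limits the precision. Alternatives were the filter, 1 probe set per gene, sex, normalisation, variance options, array weights, subsets of arrays and the replicate block.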

Additional observations from a re-analysis of the deposited data

Results flagged for a closer look

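In 75 sets of values, each of 1 member probe set in 1 group, a single mouse stood apart from the others of its group 3 times by Dixon's criterion, where chance gives about 1 in 20. Pou2af1 in WT 4 was 13.16, below 13.23 to 13.24 in the other WT mice. Bcl6 in HET 2 was 12.92, below 13.01 to 13.05 in the other HET mice. Mef2c in KO 3 was 10.99 on the probe set with the KO difference of -0.21, below 11.50 to 11.68 in the other KO mice.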

How the results depend on the processing

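Under 26 alternative settings limma called 0 member probe sets in KO against WT, HET against WT and KO against HET, and 0 for any difference among the groups in the 25 settings that hold all 3 groups. The share of member probe sets with the KO interval within 0.5 of 0 was 92%, and ran from 76% with females alone to 100% with 1 probe set per gene, and from 84% to 96% when 1 mouse was left out. The KO difference of the brightest probe set stayed on one side of 0 for Bach2 (0.01 to 0.09), Pax5 (0.08 to 0.40), Mef2b (-0.20 to -0.05), Mef2c (-0.07 to -0.04), Spib (-0.12 to -0.04), Irf8 (-0.28 to -0.09) and Foxo1 (-0.10 to -0.02). It lay on both sides for Bcl6 (-0.02 to 0.02), Pou2af1 (-0.04 to 0.04) and Ebf1 (-0.13 to 0.04). With the replicate block, 0 member probe sets were called in any comparison and 96% lay within 0.5. Same-numbered mice correlated from -0.178 to 0.438 in their deviations from group means. This was over 0.1 in 10 of 13 pairs and not in the other 3, and 10 of the 14 arrays correlated best with a mouse of their own number, a hint from the data and not from the design. The block ended the calls of Cdkn2a and Rgs13 and left 159 of the 201 calls in number.

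The background moved more. Over all probe sets the 201 calls in KO against WT became 309 without the sex covariate, 112 above the 75th percentile, 46 with the compared groups alone, 51 without KO 3 and WT 4 and 15 in females alone, and 94 to 223 with 1 mouse left out. The 94 calls of the F test ran from 0 (females alone) to 154, HET against WT from 0 to 4 and KO against HET from 0 to 27. The cause was not tested. The Cdkn2a call, at adjusted p = 0.0467, held in 5 of 25 settings, and that of Rgs13, at 0.0369, in 9 of 26. The number of mice limits all intervals.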
